A study of Mus musculus with 8 samples.

Results

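The vascular endothelial growth factor (VEGF) system was examined in SV-LECs exposed to TGFβ1. It was represented by 10 genes: the 5 ligands Vegfa, Vegfb, Vegfc, Vegfd and Pgf, the 3 receptor tyrosine kinases Flt1, Kdr and Flt4, and the 2 neuropilins Nrp1 and Nrp2. Each gene was taken by its symbol, and each symbol occurred once among the 55471 genes of the count table. All 10 members were among the 13818 genes that passed the filter on low counts.

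SV-LECs are an SV40-immortalized mouse line, described by its label as lymphatic endothelial cells of mesenteric adventitia, and all libraries came from this single line. One group was left without treatment and the other received 10 ng/ml TGFβ1 for 72 h, with 4 libraries in each group. The study's methods call the 4 samples of a group technical replicates. Errors and p-values therefore refer to the spread between such samples and not to independent experiments. Total counts were 18952504 to 26386941 per library, and levels are given as CPM, the usual count of a gene relative to the scaled total of its library. On this scale 3 counts corresponded to 0.113 to 0.162 CPM.

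VEGF ligands are secreted dimers that act on receptor tyrosine kinases of endothelial cells. VEGFA signals mainly through KDR (VEGFR2) in the growth of blood vessels, VEGFB and PGF bind FLT1 (VEGFR1), and VEGFC and VEGFD are the ligands of FLT4 (VEGFR3), the receptor that directs the growth of lymphatic vessels. Neuropilins have little signalling activity of their own. They bind VEGFs together with the kinases and also serve as receptors of class 3 semaphorins.

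The label of the line was compared with the transcripts that define endothelial cells. Of 12 endothelial marker genes only 4 passed the filter on low counts, and of 10 lymphatic endothelial marker genes only 3 did. Tie1, Erg and Ccl21a had 0 counts in all 8 libraries. Cdh5, which encodes VE-cadherin, and Prox1, the master transcription factor of lymphatic identity, had at most 2 counts in any library, Lyve1 at most 3 and Pecam1 at most 5. The 3 lymphatic markers that passed were podoplanin (Pdpn, 308 to 359 CPM), Sema3d (187 to 247 CPM) and Thy1 (39.3 to 93.4 CPM). The 4 endothelial markers that passed were endoglin (Eng, 58.1 to 148 CPM), Egfl7 (3.60 to 6.16 CPM), Esam (2.55 to 4.13 CPM) and Tek (0.433 to 0.913 CPM). Pdpn, Thy1 and Eng are also made by other cell types. Of 8 mesothelial and epithelial markers 6 passed the filter. Upk3b was at 70.7 to 569, Msln at 191 to 383 and Wt1 at 76.8 to 206 CPM, whereas Krt19 was at 5.22 to 8.48 CPM and Krt8, Krt18, Cdh1 and Epcam were each below 2 CPM in every library. Of 12 fibroblast and mural markers, 10 passed the filter, and Col1a1 lay between 2677 and 6462 CPM. Among 6 leukocyte markers, Adgre1 was at 0, Ptprc had 1 count in all, and only Cd68 passed the filter. Transcripts of Cdh5, Pecam1, Tie1, Erg, Prox1 and Lyve1 were thus near absent while other listed markers were present, and the cells are called SV-LECs here by the name of the line only.

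Every gene of the VEGF system differed between the groups. Genes were called by a likelihood ratio test in edgeR, with p-values adjusted after Benjamini and Hochberg across the whole table and a false discovery rate (FDR) below 0.05. By this rule TGFβ1 raised 7 of the 10 members and lowered 3. Across all genes tested, 37.6% were higher and 38.0% were lower, so that a change as such was common in these cells. The libraries of the groups did not overlap in 10 of 10 members, against 69.8% of all genes tested. The median log2 fold change was 0.68 over the members and -0.01 over all genes tested. Vegfc, Pgf and Nrp1 stood above the other members, with changes larger than those of 98.9%, 98.4% and 98.0% of all genes tested in absolute size. The changes of Flt4 and Nrp2 were near the middle of all genes tested, and that of Vegfa was smaller than most.

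**Figure D1:**
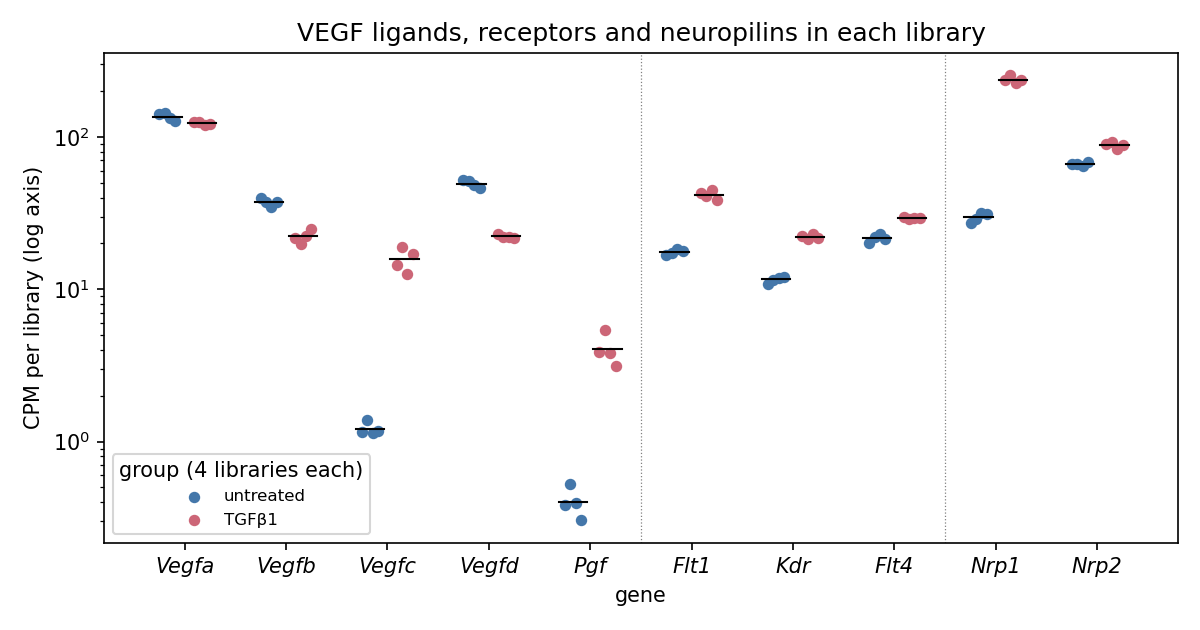
Points show the level of each gene in CPM on a log axis for the 4 untreated (blue) and the 4 TGFβ1-treated (red) libraries, and black lines show group means. Dotted lines part ligands, receptor tyrosine kinases and neuropilins. Vegfc, Pgf and Nrp1 rise far above their untreated levels, whereas the libraries of Vegfa lie close together.

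Vegfc (ENSMUSG00000031520, GRCm38 chromosome 8, 54077606 to 54187096, plus strand) had the largest change of the system. It was counted 24, 37, 26 and 23 times in the untreated libraries and 268, 388, 256 and 440 times in the treated ones. These counts correspond to 1.16, 1.39, 1.14 and 1.17 CPM without treatment and to 14.5, 18.9, 12.6 and 17.1 CPM after TGFβ1. All treated libraries lay well above all untreated ones. This was a 12.9-fold rise, 3.69 on the log2 scale (standard error 0.185, FDR = 2.69e-102 from edgeR).

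Vegfd (ENSMUSG00000031380, chromosome X, 164373378 to 164402650, plus strand), the other ligand of FLT4, changed in the opposite direction. Its levels were 52.4, 51.0, 48.2 and 45.9 CPM in untreated libraries and 23.2, 22.1, 22.1 and 21.9 CPM in treated libraries. The treated libraries clustered within a narrow range below all untreated ones. The log2 fold change was -1.15 (standard error 0.0607, FDR = 7.42e-80 from edgeR).

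The balance between the 2 ligands of FLT4 was followed as a ratio within each library, in which library size cancels. The log2 ratio of Vegfc to Vegfd counts was -5.47, -5.18, -5.38 and -5.27 in untreated libraries and -0.67, -0.22, -0.81 and -0.36 in treated libraries. It shifted by 4.81, from -5.33 ± 0.13 to -0.52 ± 0.27 (SD, n = 4; exact two-sided permutation test, p = 0.0286). This p is the smallest that 4 libraries against 4 allow, and it was 0.0286 for each of the 5 ratios computed and after Benjamini-Hochberg adjustment over them. Since Vegfc was higher and Vegfd lower in all treated libraries, their ratio had to separate the groups. Its p therefore adds no evidence to the tests of the single genes. Per kilobase of exon, Vegfc made up 2.36% ± 0.209 of the summed level of Vegfc and Vegfd without treatment and 40.8% ± 4.55 after TGFβ1 (SD, n = 4). The sum itself was 21.0 ± 1.21 CPM per kilobase without treatment and 15.7 ± 1.07 after TGFβ1 (SD, n = 4), since per kilobase Vegfd lost more than Vegfc gained.

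The sequences before the RefSeq starts of Vegfc and Vegfd are shown because these genes share a receptor but moved in opposite directions, and those of Nrp1 and Nrp2 because their rises were unequal. The 250 bases before each start were searched on both strands for CAGACA (SMAD element), TGAGTCA (AP-1 site), GGAATG (TEAD site), CAGGTG (E-box), GGGCGG (GC box) and ACGTG (core of the hypoxia element). The sequences are RefSeq's on GRCm38.p6, read 5′ to 3′ on the strand of the gene, with matches in capitals. Bases that GENCODE M21 annotates as exon were removed, which shortened Vegfd to chrX:164373272-164373377 and Nrp2 to chr1:62703067-62703284. Vegfc is chr8:54077282-54077531 and Nrp1 is chr8:128358823-128359072, all on the plus strand.
Vegfc: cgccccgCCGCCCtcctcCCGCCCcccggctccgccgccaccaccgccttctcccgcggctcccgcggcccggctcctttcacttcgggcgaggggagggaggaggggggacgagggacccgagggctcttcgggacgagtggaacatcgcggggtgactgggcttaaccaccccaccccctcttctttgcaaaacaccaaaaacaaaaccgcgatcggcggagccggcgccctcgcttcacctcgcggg
Vegfd: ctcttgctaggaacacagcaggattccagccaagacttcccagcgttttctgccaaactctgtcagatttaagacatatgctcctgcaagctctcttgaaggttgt
Nrp1: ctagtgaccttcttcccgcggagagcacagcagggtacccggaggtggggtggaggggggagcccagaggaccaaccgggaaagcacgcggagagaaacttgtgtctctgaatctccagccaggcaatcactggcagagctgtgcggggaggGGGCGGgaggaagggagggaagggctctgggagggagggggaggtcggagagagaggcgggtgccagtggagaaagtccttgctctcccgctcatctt
Nrp2: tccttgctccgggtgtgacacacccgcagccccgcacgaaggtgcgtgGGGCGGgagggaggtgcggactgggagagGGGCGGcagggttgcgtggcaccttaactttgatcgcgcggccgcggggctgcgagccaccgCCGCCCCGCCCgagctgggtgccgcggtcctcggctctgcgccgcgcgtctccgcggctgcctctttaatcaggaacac

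All capitals in these stretches are GC boxes, which were present in 32.7% of 32851 windows of the same length before RefSeq starts. The Vegfc window held 2 of them, with 71.6% G and C and 30 CG pairs in 250 bases. The Vegfd window held none of the searched motifs, with 42.4% G and C and 2 CG pairs. The Nrp1 window held 1 GC box and the Nrp2 window 5, of which 4 lie in the stretch shown and 2 overlap each other there. The SMAD element occurred in 17.1%, the AP-1 site in 4.46% and the TEAD site in 12.6% of all windows, and none of them was found in these 4 windows. No match says only that these letters are not in the window.

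Vegfa (ENSMUSG00000023951, chromosome 17, 46016993 to 46032369, minus strand) had the highest level per kilobase of exon in both groups and changed least. Untreated libraries had 141, 143, 133 and 128 CPM and treated libraries 125, 125, 120 and 122 CPM. The lowest untreated and the highest treated library were only about 3 CPM apart (127.9 and 125.1). Vegfa fell by 0.15 on the log2 scale (95% interval of the log2 fold change -0.24 to -0.05, FDR = 0.00256 from edgeR), less than the median absolute change of 0.39 over all genes tested.

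Vegfb (ENSMUSG00000024962, chromosome 19, 6982473 to 6987651, minus strand), a ligand of FLT1 known from fatty acid handling in heart and muscle, was at 39.8, 37.1, 34.8 and 37.2 CPM in untreated libraries. In treated libraries it was at 21.6, 19.9, 22.4 and 24.9 CPM, all below the untreated ones. Its log2 fold change was -0.74 (standard error 0.0719, FDR = 2.57e-24 from edgeR).

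Pgf (ENSMUSG00000004791, chromosome 12, 85166635 to 85177790, minus strand), the placental growth factor and the other specific ligand of FLT1, was the lowest member and moved the other way. It had 8, 14, 9 and 6 counts in untreated libraries and 72, 111, 78 and 81 counts in treated ones. In CPM these were 0.385, 0.526, 0.393 and 0.304 against 3.89, 5.40, 3.84 and 3.14. The groups were clearly apart, although the low counts widened the interval of the log2 fold change to 2.72 to 3.86 around 3.29 (FDR = 7.51e-38 from edgeR).

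The ratios of Vegfa to the induced ligands shifted accordingly. The ratio of Vegfa to Vegfc counts, which is not scaled for length and serves only to compare the groups, was 110 in untreated libraries and 7.89 in treated ones (geometric means), a log2 difference of -3.81. For Vegfa to Pgf the ratio was 325 without treatment and 30.6 after TGFβ1, a log2 difference of -3.41. In neither ratio did the groups overlap (exact two-sided permutation test, p = 0.0286 for each, n = 4). Since Vegfa was lower and Vegfc and Pgf were higher in all treated libraries, both ratios had to separate. These p-values therefore add no evidence to the tests of the single genes.

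**Figure D2:**
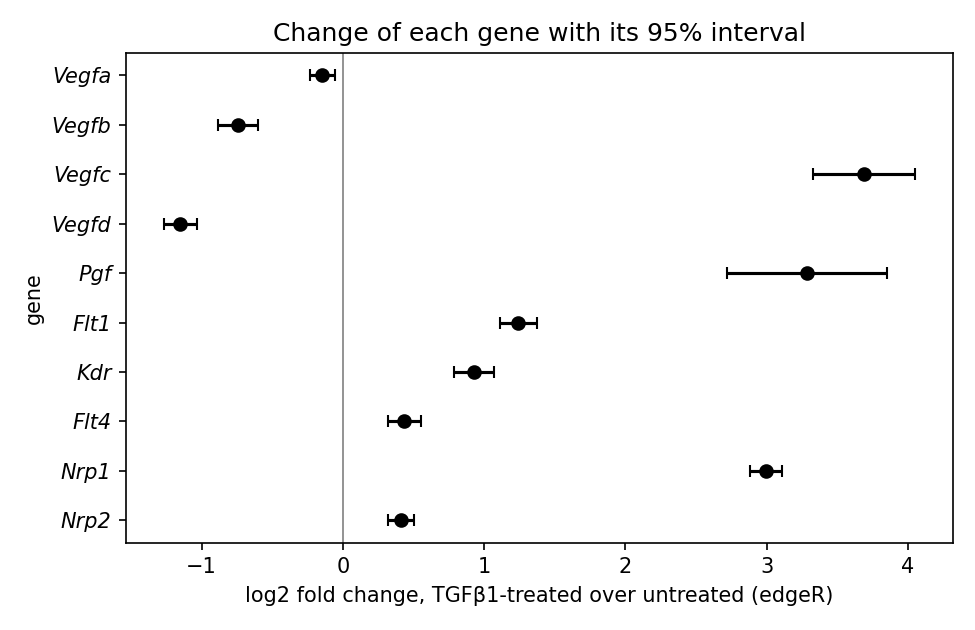
The log2 fold change of TGFβ1-treated over untreated SV-LECs is plotted for each gene, with bars for the 95% interval from edgeR's model. The intervals of Vegfc (3.33 to 4.05), Pgf and Nrp1 (2.88 to 3.11) lie far to the right of the others, and those of Vegfa, Vegfb and Vegfd lie below 0.

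All 3 receptor tyrosine kinases were higher after TGFβ1, in the order Flt1, Kdr and Flt4. Flt1 (ENSMUSG00000029648, chromosome 5, 147561604 to 147726011, minus strand), which encodes the high-affinity receptor VEGFR1 and also a soluble decoy form, had 16.8, 17.4, 18.3 and 17.9 CPM in untreated libraries. In treated libraries it had 43.0, 40.8, 44.5 and 38.4 CPM. Its fold change was 2.37 (log2 fold change 1.24, standard error 0.0659, FDR = 6.11e-79 from edgeR). Counts per gene do not part the soluble from the membrane form.

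Kdr (ENSMUSG00000062960, chromosome 5, 75932827 to 75978458, minus strand), the main signalling receptor of VEGFA, had 10.8, 11.6, 11.9 and 12.1 CPM in untreated and 22.3, 21.2, 23.0 and 21.8 CPM in treated libraries. The spread within each group was small beside the distance between the groups. The fold change was 1.90 (log2 fold change 0.93, standard error 0.0714, FDR = 2.01e-38 from edgeR).

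Flt4 (ENSMUSG00000020357, chromosome 11, 49609263 to 49652739, plus strand), the receptor of VEGFC and VEGFD, had 20.0, 22.2, 22.9 and 21.4 CPM without treatment and 29.8, 28.8, 29.4 and 29.3 CPM after TGFβ1. All treated libraries were above all untreated ones, but the fold change of 1.35 was the smallest among the kinases (log2 fold change 0.44, standard error 0.0593, FDR = 5.64e-13 from edgeR).

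Flt1 rose more than Kdr. The log2 ratio of Flt1 to Kdr counts was 0.63, 0.59, 0.62 and 0.56 in untreated libraries and 0.95, 0.94, 0.95 and 0.82 in treated ones, a difference of 0.31 (exact two-sided permutation test, p = 0.0286, n = 4). Per kilobase of exon, the summed level of the kinases was 5.21 ± 0.245 CPM without treatment and 9.09 ± 0.294 after TGFβ1 (SD, n = 4). Within this sum the share of Flt4 was 50.4% ± 0.830 without treatment and 39.2% ± 0.996 after TGFβ1, and that of Flt1 was 25.0% ± 0.417 and 33.9% ± 1.17 (SD, n = 4).

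Of the neuropilins, Nrp1 (ENSMUSG00000025810, chromosome 8, 128358604 to 128503363, plus strand), a coreceptor of VEGFA and SEMA3A, had 27.4, 28.8, 31.8 and 31.3 CPM in untreated libraries. After TGFβ1 it had 235, 254, 227 and 235 CPM. This was a 7.97-fold change with a narrow spread in both groups (log2 fold change 3.00, standard error 0.0569). Its likelihood ratio statistic of 2654 was the largest of the system, with an FDR from edgeR too small for the computer to represent. An exon of Nrp1 overlaps Mir1903 on the same strand over 80 bases, and 0.0618% of its stretches of 75 bases, the read length, are shared with it.

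Nrp2 (ENSMUSG00000025969, chromosome 1, 62703285 to 62818695, plus strand), which is known as a coreceptor of VEGFC and SEMA3F in lymphatic endothelium, had 66.2, 66.7, 64.5 and 68.2 CPM without treatment and 89.1, 92.4, 83.0 and 88.9 CPM after TGFβ1. It rose by a fold change of 1.33 (log2 fold change 0.41, standard error 0.0480, FDR = 3.03e-17 from edgeR).

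Which neuropilin led depended on the treatment. The log2 ratio of Nrp1 to Nrp2 counts was -1.27, -1.21, -1.02 and -1.12 in untreated libraries and 1.40, 1.46, 1.45 and 1.40 in treated libraries. The shift was 2.58 (exact two-sided permutation test, p = 0.0286, n = 4). Between any untreated and any treated library Nrp1 rose more than Nrp2, so their ratio had to separate the groups. Its p adds no evidence to the tests of the single genes. Per kilobase of exon, Nrp1 made up 35.2% ± 1.73 of both neuropilins without treatment and 76.5% ± 0.382 after TGFβ1 (SD, n = 4).

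**Figure D3:**
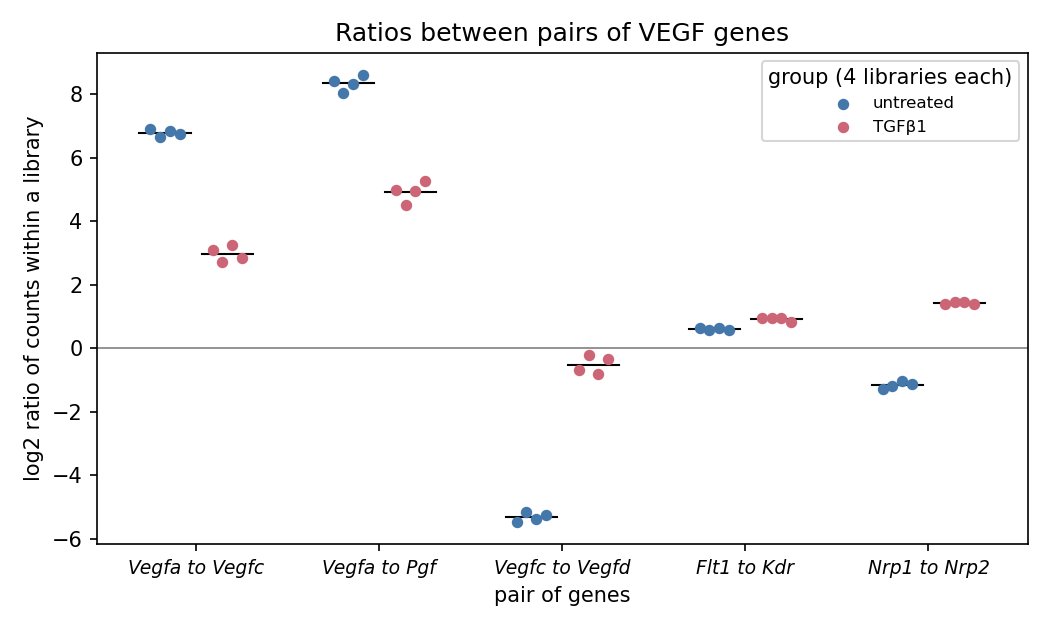
Each point is the log2 ratio of the counts of a pair of genes within one library, with untreated libraries in blue, TGFβ1-treated libraries in red and group means as black lines. The ratio of Nrp1 to Nrp2 crosses 0, from a mean of -1.16 to 1.43, and that of Vegfc to Vegfd shows the widest shift.

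For the order of the members, levels were taken per kilobase of exon. The length was that of the exons of all transcripts of a gene in GENCODE M21, joined. The transcripts made in these cells may be shorter, by an unknown amount for each gene. Orders and shares between genes depend on this choice, while changes of 1 gene between the groups do not. In untreated SV-LECs the order was Vegfa (31.7 CPM per kilobase), Vegfb (23.2), Vegfd (20.5), Nrp2 (5.61), Nrp1 (3.05), Flt4 (2.63), Flt1 (1.30), Kdr (1.28), Vegfc (0.495) and Pgf (0.139). Vegfb and Vegfd, and likewise Flt1 and Kdr, overlapped in their ranges over libraries. Within each untreated library Vegfb was above Vegfd. Flt1 and Kdr could not be ordered, since Kdr was above Flt1 in untreated library 4 and below it in the others. After TGFβ1 the order was Vegfa (28.7), Nrp1 (24.3), Vegfb (13.8), Vegfd (9.26), Nrp2 (7.46), Vegfc (6.44), Flt4 (3.56), Flt1 (3.09), Kdr (2.45) and Pgf (1.40). Here only Nrp2 and Vegfc overlapped among neighbours, although Nrp2 was above Vegfc within each treated library. On this scale Nrp1 was the fifth of the members without treatment and came directly below Vegfa after TGFβ1. In CPM without length scaling, Nrp1 (mean 238) was above Vegfa (mean 123) after TGFβ1.

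The summed level of the 5 ligands was 76.1 ± 3.67 CPM per kilobase in untreated SV-LECs and 59.6 ± 1.45 in treated ones (SD, n = 4). Vegfa accounted for 41.7% ± 0.751 of this sum without treatment and 48.2% ± 1.07 after TGFβ1. The shares of Vegfb and Vegfd were 30.5% ± 1.13 and 27.0% ± 0.475 without treatment, and 23.2% ± 2.07 and 15.5% ± 0.605 after TGFβ1. Vegfc had 0.650% ± 0.0560 of the ligand level without treatment and 10.8% ± 1.70 after TGFβ1 (SD, n = 4).

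**Figure D4:**
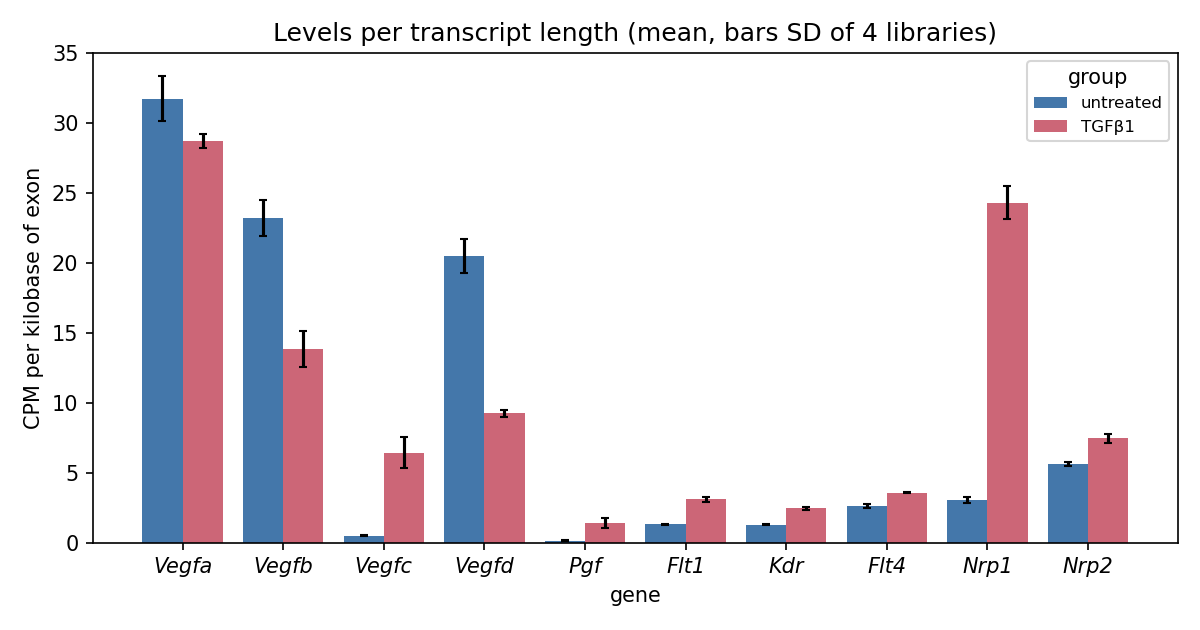
Bars give the mean CPM per kilobase of exon over 4 libraries for untreated (blue) and TGFβ1-treated (red) SV-LECs, with the SD as error bars. Nrp1 goes from 3.05 to 24.3, next to Vegfa at 28.7, while the receptor tyrosine kinases stay below 4.

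Marker genes of other cell types moved with the treatment as well. The summed level of the mesothelial and epithelial list was 984 to 1136 CPM in untreated and 347 to 415 CPM in treated libraries, with 4 of its 6 tested genes lower and 2 higher. The fibroblast and mural list was at 6986 to 8980 CPM without treatment and 9562 to 10757 CPM after TGFβ1, with 7 of 10 tested genes higher and 3 lower. Most of this sum came from 2 collagen genes that moved in opposite directions. Col1a1 had a mean of 3459 CPM without treatment and 6057 after TGFβ1, and Col3a1 had 3407.5 and 1805 CPM. Of the endothelial list, 2 of 4 tested genes were higher and 1 was lower, and all 3 tested lymphatic markers were lower. The endothelial list summed to 67.9 to 75.5 CPM without treatment and to 149 to 157 after TGFβ1. Most of this sum was Eng, with a mean of 62.0 CPM without treatment and 143 after TGFβ1. No other endothelial marker exceeded 6.16 CPM in any library. For comparison, 37.6% of all genes tested were higher and 38.0% lower. In RNA of whole cultures a change in the share of a cell type cannot be told apart from a change of RNA per cell. The part of these markers in the changes of the VEGF genes was not tested.

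VEGFC is cleaved outside the cell before it activates FLT4 fully. Genes of this and other steps of ligand processing were examined next. Of 8 genes for the processing of VEGF ligands, all were tested. After TGFβ1, 6 were higher and 2 lower, with a median log2 fold change of 0.41. Over all genes tested, 37.6% were higher and 38.0% lower. Neither for this list nor for those below was a difference from all genes tested. Ccbe1, the cofactor of VEGFC cleavage, had 8, 23, 16 and 8 counts in untreated and 30, 44, 33 and 52 counts in treated libraries, a rise of 1.61 on the log2 scale (standard error 0.245, edgeR FDR = 1.09e-11). Adamts3, the protease that works with CCBE1, rose from 10.6 ± 0.688 to 13.7 ± 1.65 CPM (SD, n = 4), a log2 fold change of 0.36. Ctsd, which encodes the lysosomal protease cathepsin D, rose from 253 ± 16.3 to 688 ± 21.9 CPM (log2 fold change 1.44). The proprotein convertases Pcsk6 and Pcsk5 fell, with log2 fold changes of -0.67 and -0.68, whereas the other convertases of this list rose.

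Semaphorins and plexins share the neuropilins with VEGFs. Of 12 such genes 5 were higher, 3 were lower and 4 did not pass the test, and the median log2 fold change was 0.02. Over all genes tested, 37.6% were higher and 38.0% lower. Sema3a, a semaphorin that binds NRP1, fell from 449 ± 31.0 to 197 ± 5.67 CPM (SD, n = 4; log2 fold change -1.19), while Nrp1 itself rose. Sema3d fell as well (log2 fold change -0.28). Plxnd1, the plexin of endothelial cells, rose from 31.1 ± 0.816 to 68.4 ± 1.99 CPM (log2 fold change 1.14). Sema3g, with 5 to 9 counts in untreated and 23 to 30 in treated libraries, rose by 1.89 on the log2 scale.

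Among 16 partners of the receptors and genes of their trafficking, 14 were tested, of which 6 were higher, 6 were lower and 2 did not pass. Over all genes tested, 37.6% were higher and 38.0% lower. Itgb3, which encodes the β3 integrin that cooperates with KDR, rose from 4.67 ± 0.376 to 20.0 ± 1.53 CPM (SD, n = 4; log2 fold change 2.10). Efnb2, the ephrin that promotes uptake of KDR and FLT4 from the membrane, rose from 42.6 ± 2.00 to 142 ± 3.87 CPM (log2 fold change 1.74). Ptprb, the phosphatase VE-PTP that restrains KDR, fell by 0.43, and the endocytic adaptors Dab2 and Epn2 fell by 0.62 and 0.45 on the log2 scale. Cdh5, whose product holds KDR at cell junctions, had too few counts to be tested.

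Genes of the signalling cascade below the receptors moved in both directions. Of 38 signal transducers, 36 were tested, with 14 higher, 16 lower and 6 not passing, and a median log2 fold change of -0.05. Over all genes tested, 37.6% were higher and 38.0% lower. Plcg1, the phospholipase that binds activated KDR, fell from 192 ± 7.09 to 158 ± 6.92 CPM (SD, n = 4; log2 fold change -0.29). The adaptor Shb and the calcineurin subunit Ppp3cb had the largest falls, with log2 fold changes of -0.84 and -0.77. Sphk1, which encodes sphingosine kinase 1, rose from 3.09 ± 0.328 to 16.5 ± 0.392 CPM (log2 fold change 2.40). Nfatc2, a transcription factor downstream of calcineurin, had 0 to 5 counts in untreated and 10 to 20 in treated libraries (log2 fold change 3.18, standard error 0.580, FDR = 8.40e-13 from edgeR). Untreated library 2 held 5 of its untreated counts, and without that library the log2 fold change was 4.34. Nos3, the endothelial nitric oxide synthase, was at 1.08 ± 0.203 CPM without treatment and 0.812 ± 0.278 after TGFβ1, and did not pass the test (log2 fold change -0.44, FDR = 0.102 from edgeR). Without the treated library 2 it passed (log2 fold change -0.67, FDR = 0.0177 from edgeR).

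Genes that VEGF is known to induce in endothelial cells were listed next. Of 18 genes 14 were tested, with 10 higher, 2 lower and 2 not passing, and the median log2 fold change was 0.45. Of all genes tested, 37.6% were higher and 38.0% lower. The 4 listed genes that were not tested had at most 8 counts in any library. Whether VEGF signalling had a part in the changes of this list was not tested. Ptgs2, which encodes cyclooxygenase 2, rose from 271 ± 35.5 to 1527 ± 47.9 CPM (SD, n = 4; log2 fold change 2.50). Egr3, an early response transcription factor, rose by 1.59 on the log2 scale on 0 to 11 counts in untreated and 10 to 25 in treated libraries. Apln, which encodes the endothelial peptide apelin, had 60 to 82 counts without treatment and 1 to 10 after TGFβ1 (log2 fold change -3.75). The 10 counts were in treated library 2, without which the log2 fold change was -4.49. Adamts1, a protease that can bind VEGFA, fell by 0.90. Dll4, the Notch ligand that VEGF induces in tip cells, had 0 counts in every untreated library and at most 3 in a treated one.

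Genes of the hypoxia pathway, which is known to induce Vegfa, moved in both directions. Of 20 genes 11 were lower, 5 were higher and 4 did not pass, with a median log2 fold change of -0.20. Over all genes tested, 38.0% were lower and 37.6% higher, and the difference between the list and all genes was not tested. Hif1a, the oxygen-regulated subunit, fell from 670 ± 32.0 to 503 ± 14.6 CPM (SD, n = 4; log2 fold change -0.41), whereas Epas1, its relative of endothelial cells, rose from 1.45 ± 0.482 to 4.95 ± 0.894 CPM (log2 fold change 1.77). The target genes Car9 and Ndrg1 fell, with log2 fold changes of -3.58 and -1.57, and Ddit4 rose by 0.92.

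Of 18 transcription factors of endothelial cells, 10 were tested, with 5 higher and 5 lower. Over all genes tested, 37.6% were higher and 38.0% lower. Foxc2, which is needed for lymphatic valves, rose from 4.88 ± 0.439 to 17.1 ± 2.52 CPM (SD, n = 4; log2 fold change 1.81), and Hhex rose by 1.23. Ets1, one of the ETS factors that act on VEGF receptor genes, rose from 174 ± 5.79 to 241 ± 8.15 CPM (log2 fold change 0.47). Nr2f2, the venous factor that cooperates with PROX1, fell from 45.8 ± 4.24 to 23.7 ± 2.27 CPM (log2 fold change -0.95), and Klf4 fell by 1.28. Prox1 and Sox18, which together specify lymphatic endothelium, had at most 2 and at most 5 counts in any library and were not tested.

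**Figure D5:**
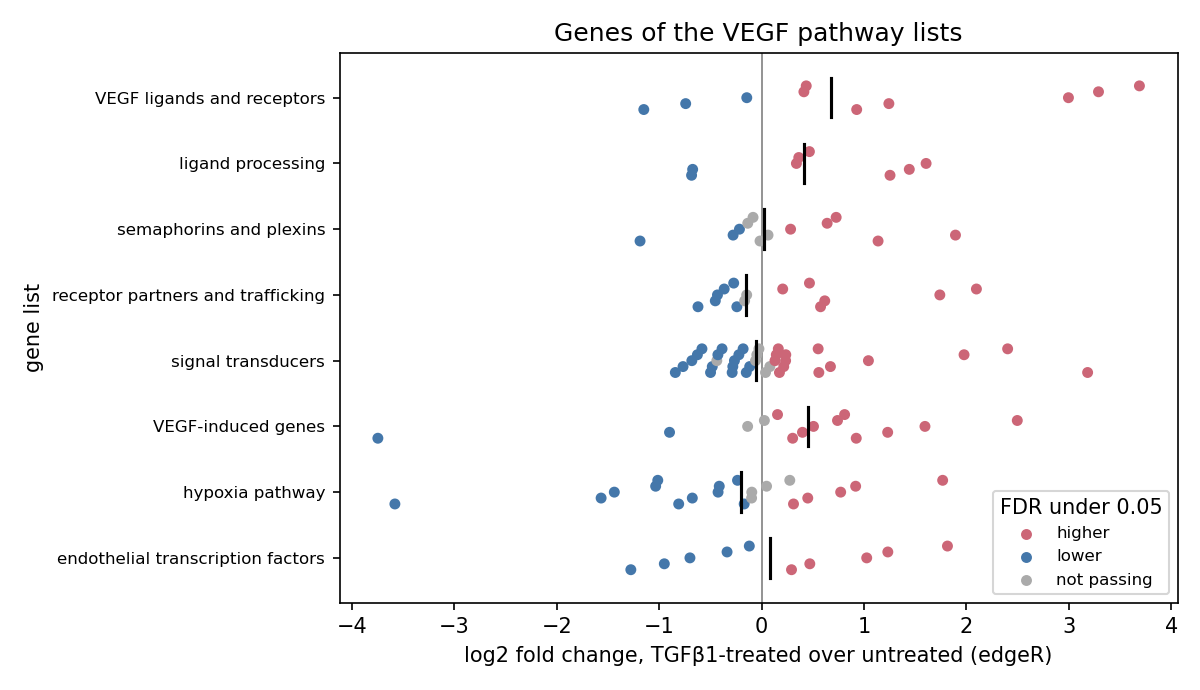
Each point is the log2 fold change of one tested gene, TGFβ1-treated over untreated, in the list named on the left. Colours show genes that were higher (red), lower (blue) or not passing (grey) at an FDR under 0.05 from edgeR, and black lines show list medians, from 0.68 for the VEGF ligands and receptors to -0.20 for the hypoxia pathway.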

How the data were processed

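For 8 libraries of SV-LECs the authors deposited counts per gene that were not normalized. The submitters' processing notes name bcl2fastq 2.20.0.422, STAR 2.7.3a, featureCounts 1.5.1 and GRCm38, and poly(A) libraries were read single-end at 75 bases. The annotation release and the strand setting of the counting are not given in the sources used here.

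The analysis used edgeR 4.0.16 under R 4.3.3, with filterByExpr, TMM, estimateDisp, glmFit and glmLRT, with FDRs over all 13818 genes tested. Library sizes entered CPM after TMM. Standard errors came from the fitted model. The pipeline was tested on simulated counts in which only a small part of the genes changed. That test does not cover data with as many changed genes as these. The quasi-likelihood test, DESeq2 1.42.0, other scalings and filters, a replicate block and each library left out in turn were alternatives. Ratios used counts plus 0.5 and exact permutation tests (SciPy 1.17.1). Exon lengths, positions and shared stretches came from GENCODE M21 and promoters from RefSeq.

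Members and gene lists were chosen with earlier results of these data known. Besides the members, each pathway list gave at most its 2 most raised and 2 most lowered genes among significant genes without overlap, plus 13 genes named whatever their values. Marker genes were named outside this rule, after their values were seen.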

Additional observations from a re-analysis of the deposited data

Results flagged for a closer look

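Within groups of 4 libraries, a library was singled out when its gap to the nearest other exceeded Dixon's 95% critical value for the group's range, which happens by chance in about 1 of 20 groups. Among 98 groups of values for the genes and ratios named above, 7 were singled out. Untreated library 2 was highest for Vegfc (1.39 CPM, the others 1.14 to 1.17) and for Adamts3 (11.6 CPM, the others 10.1 to 10.3). Treated library 4 had the lowest log2 ratio of Flt1 to Kdr (0.82, the others 0.94 to 0.95), which still lay above all untreated libraries. For Plcg1, untreated library 4 stood at 203 CPM, with the others at 188 to 189. Treated library 3 was highest for Pcsk6 (108 CPM, the others 94.2 to 96.2), treated library 2 was lowest for Epn2 (51.2 CPM, the others 56.3 to 56.7), and treated library 1 was highest for Sphk1 (17.1 CPM, the others 16.3).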

How the results depend on the processing

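All 10 members kept their direction and their side of the FDR threshold in each of 15 alternatives: edgeR's quasi-likelihood test, DESeq2, RLE size factors, total counts, no filter, a minimum of 1 CPM in 4 or more libraries, the replicate block and 8 fits without 1 library. The smallest change was the least secure, with a log2 fold change of Vegfa between -0.21 and -0.12 and an FDR of at most 0.0158 from edgeR or DESeq2. Vegfc ranged from 3.59 to 3.78, Pgf from 3.11 to 3.46 and Nrp1 from 2.93 to 3.03. Scaling by total counts shifted the median of all genes by -0.07, and no count of a list moved by more than 1.5 times. With the replicate block, 7 members were higher and 3 lower, as without it. The numbers in the labels share no stated origin. Same-numbered libraries deviated from their group means with correlations of -0.19 to -0.03, and pairs with different numbers with -0.23 to 0.25. The highest correlations were thus not those of same-numbered pairs. Deviations within a group cancel out, so these values depend on one another. Whether same-numbered libraries had a common origin was not tested. Of the named pathway genes, only Nos3 changed sides, and Sema3g, Nfatc2 and Egr3 fell under the minimum of 1 CPM and had no value there. Leaving out 1 library moved the fold by over 1.5 times for Nfatc2 (log2 fold change 4.34 without untreated library 2) and Apln (-4.49 without treated library 2), and for none of the other members and named pathway genes. Transcript forms, such as soluble Flt1, and processed proteins cannot be read from counts per gene.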
